A study of Mus musculus with 10 samples.

Results

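This account covers the glutathione, thioredoxin and NRF2 antioxidant genes in lungs that lack epithelial Hdac3. The list holds 43 genes, and 38 of them were measured by a probe set of their own, out of 17919 genes measured in all. Gpx2, Prdx1, Prdx5, Prdx6 and G6pdx have no value here; both Prdx1 probe sets also carry another gene name. The genes were listed by name, with earlier results of these data known, among them higher levels of Gclc, Nqo1, Slc7a11 and Gsta3 in the knockout, so those calls below are not independent evidence. Within a gene, the probe set was chosen by its mean over the 10 lungs. That choice mattered for Keap1 alone, whose chosen probe set differed by 0.12 and its other by 0.00 on the log2 scale between knockout and control means.

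Mouse embryo lungs taken whole at E18.5, close to birth, were profiled on Affymetrix arrays, 1 lung per array. The knockout lungs (n = 5) came from embryos labelled Shhcre:Hdac3fl/fl, in which a Cre recombinase driven from the Shh locus deletes floxed Hdac3 in the epithelium. The control lungs (n = 5) are labelled Shhcre; control, and their Hdac3 alleles are not given. All animals had a mixed C57BL/6 and 129X1,129S6 background. The stated cross is of Hdac3 fl/fl females with Hdac3 fl/+ ShhCre males, so every embryo would inherit 1 floxed allele from its mother, and controls that carry Cre would lack 1 epithelial copy. Mesenchyme, endothelium and blood keep Hdac3 and contribute to every value. In whole lung, fewer cells of a type and less RNA per cell cannot be told apart.

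NRF2, the product of Nfe2l2, is a transcription factor that is held down by KEAP1, which hands it to a ubiquitin ligase. Oxidants and electrophiles modify KEAP1, NRF2 then accumulates, and it switches on genes through antioxidant response elements. Its targets make glutathione and NADPH, conjugate reactive compounds to glutathione, reduce quinones and reduce oxidised thioredoxin and peroxiredoxins. In the lung these enzymes are known for handling oxygen after birth and inhaled toxicants.

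Values are log2 probe set levels. Hdac3 averaged 10.50 ± 0.11 in knockout lungs and 10.81 ± 0.10 in control lungs (SD, n = 5 each), which is 80.4% of the control level, and the groups did not overlap (two-sided exact permutation p = 0.00794). Its limma call (adjusted p = 0.0203) ended without control 2 (adjusted p = 0.0526) or control 5 (adjusted p = 0.0545). The tissue check genes Sftpc, Ager and Scgb1a1 averaged 13.44, 12.31 and 12.28 in knockout lungs, against 13.46, 12.31 and 12.42 in control lungs. The alveolar marker lists did not stay level throughout. Of 10 markers of alveolar type 1 cells, 2 were lower by limma with the adjustment used below, Pdpn by -0.52 and Col4a3 by -0.70. The change was positive for 8. Aqp5 (0.47) was called higher only without knockout 5 (0.62, adjusted p = 0.00264), and Rtkn2 (0.40) in the blocked fit described below (adjusted p = 0.00862). Of 10 markers of alveolar type 2 cells, 2 were higher, Etv5 by 0.61 and Lpcat1 by 0.34. Sftpa1 differed by -0.48 (adjusted p = 0.0899), and Napsa (0.21) was called higher without knockout 5 (0.26, adjusted p = 0.0201). Over all genes, 1.54% were called higher and 1.58% lower. Array medians lay between 7.43 and 7.46, and the array number limits the precision. One lung stood apart for these genes. Knockout 5 was the lowest knockout lung for 7 of the 9 members called higher, and for 115 (41.7%) of the 276 genes called higher in all, so values without it are given where they change a call. It was also the lowest knockout lung for 8 of 10 type 2 markers. The gap was wide for Sftpd, at 9.92 in knockout 5 and 10.37 to 10.93 in the other knockout lungs. For Sftpc it was narrow, at 13.39 against 13.41 to 13.49. Etv5, of the same list, went the other way, with its highest knockout level, 10.46, in knockout 5. The mean level of that list ran from 11.61 to 11.89 in knockout lungs and from 11.66 to 11.76 in control lungs. Knockout 5 was also the lowest knockout lung for 5 of 10 endothelial and 5 of 10 macrophage markers. The count was 3 of 10 for club and secretory, 2 of 10 for type 1 and 1 of 10 for fibroblast markers. It was 0 of 9 for ciliated and 0 of 4 for erythroid markers. The share of all genes that were lowest in knockout 5 was not counted. Hdac3 in knockout 5 was 10.43, within the range of the other knockout lungs, 10.34 to 10.61. The part of type 2 or other cells in the values of knockout 5 was not tested.

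A gene was called when its limma p, two-sided and adjusted by the Benjamini-Hochberg method over all 17919 genes, was under 0.05. By this rule 9 members were higher in the knockout: Nfe2l2, Gclc, Gsr, Slc7a11, Nqo1, Srxn1, Gsta3, Gsto1 and Gpx4. That is 9 of 38 measured members, where 1.54% of all genes were called higher and 3.12% were called in either direction. By limma 0 members were called lower (1.58% of all genes were), and 2 had a negative change with an unadjusted p under 0.05. In all, 15 members had an unadjusted p under 0.05, against 13.5% of all genes. The median change of the 38 members was 0.05 and that of all genes 0.00, so most members lay close to the background and a few stood well above it. The knockout lungs all lay above the control lungs for 8 members (2.44% of all genes) and all below them for 0 (2.66% of all genes).

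The replicate numbers 1 to 5 occur in both groups and were taken to pair the lungs. The labels do not state this pairing. It was inferred from these same values, so the blocked calls depend on it. With the number as a block, 10 members were higher, where 2.28% of all genes were, and 0 were lower, where 2.44% were. The added member was Txnrd1. Without knockout 5 the count was 12, where 2.13% of all genes were called higher and 1.77% lower, and Gclm, Txnrd1 and Pgd were the additions. With control 5 or knockout 1 left out it was 6, and Gclc, Slc7a11 and Gpx4 were lost in both cases.

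**Figure D1:**
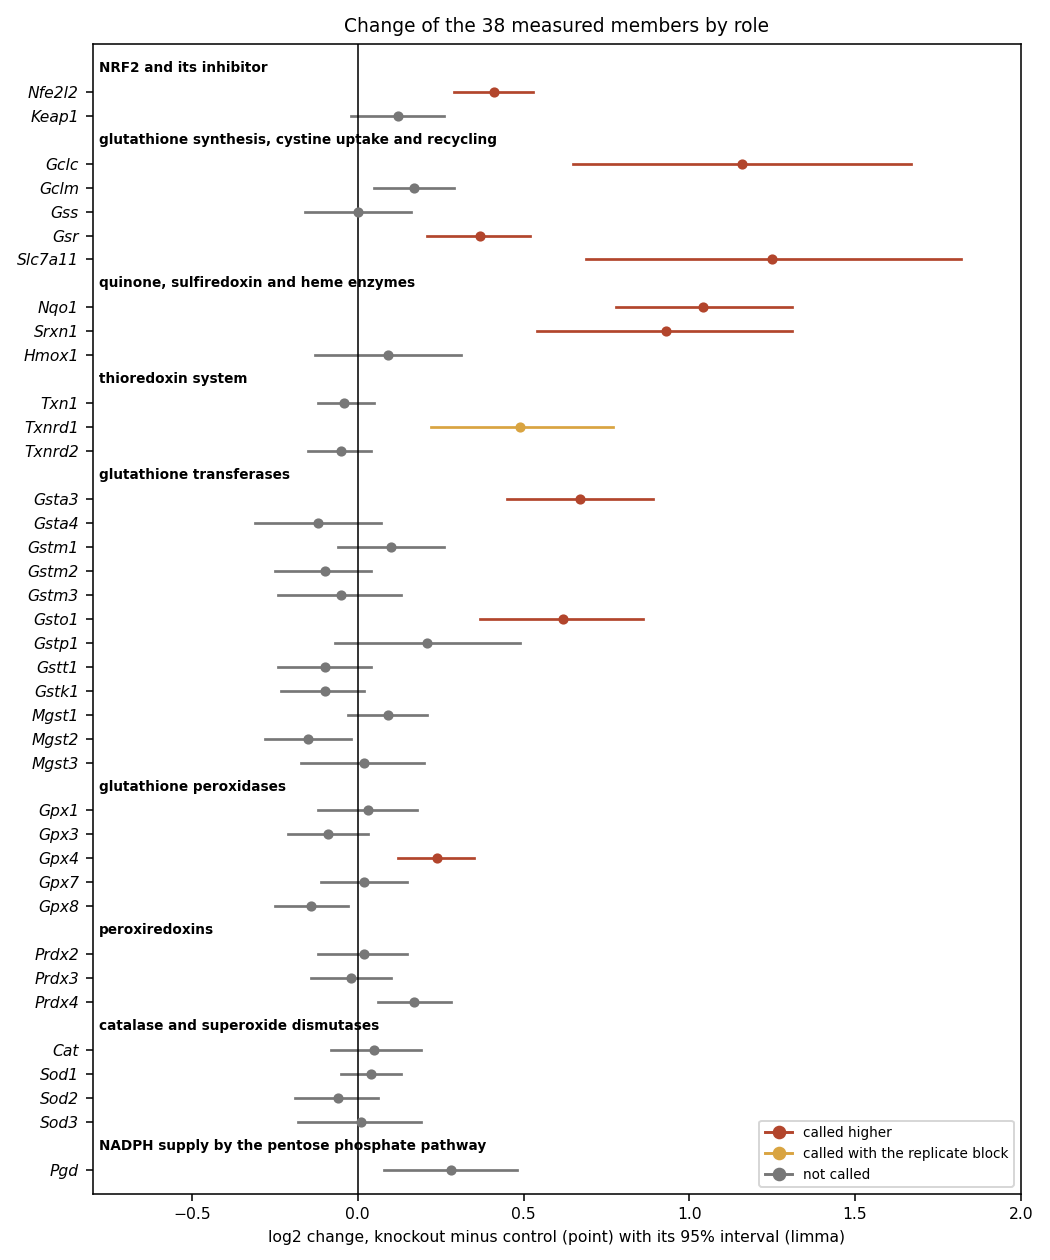
Change of the 38 measured members, grouped by role. Points are log2 changes, knockout minus control, and lines their 95% intervals from limma (n = 5 lungs per group); red marks the 9 members called higher and yellow Txnrd1, called with the replicate block. The red points fall among regulators, glutathione synthesis, quinone and sulfiredoxin enzymes, transferases and Gpx4. Prdx2, Prdx3, catalase and the superoxide dismutases sit near 0, and Prdx4, not called, sits at 0.17.

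Promoter windows of 250 bases before to 50 after the start site were available from RefSeq (build GRCm38.p6) for 33 of the 38 measured members, with Gclc, Gsr, Hmox1, Gsta4 and Sod3 having none. They were searched on both strands for the core of the antioxidant response element, TGACNNNGC. It was found in 3 of 7 called members with a window (Nfe2l2, Srxn1 and Gsta3) and in 5 of 26 others (Gclm, Pgd, Mgst1, Txnrd1 and Sod1), against 14.0% of all 27025 genes in the table. A second form, TGANTCAGC, was searched after the first result was seen. It contains the AP-1 motif TGANTCA and leaves free the base after TGA, so a match to it need not match the core. It was found in Srxn1 and Gstp1 alone among the members, both times as TGAGTCAGC, and in 1.37% of all genes. Srxn1 was the 1 member that held both forms, which 0.596% of all genes did. Only the windows of the 3 called members with a match are shown, so the display was chosen by the call. Those of the 5 others with the core are not shown, and a role of the motif in any change was not tested. Capitals mark each match, written 5′ to 3′ on the gene's strand.
Srxn1, chr2:152105274-152105573, plus strand: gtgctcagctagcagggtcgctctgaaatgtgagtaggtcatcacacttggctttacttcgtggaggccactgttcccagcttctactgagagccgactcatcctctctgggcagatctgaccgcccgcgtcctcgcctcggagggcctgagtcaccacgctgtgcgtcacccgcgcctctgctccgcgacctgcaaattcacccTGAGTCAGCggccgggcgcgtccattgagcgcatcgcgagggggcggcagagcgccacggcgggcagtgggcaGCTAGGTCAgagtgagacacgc
Gsta3, chr1:21240335-21240634, plus strand: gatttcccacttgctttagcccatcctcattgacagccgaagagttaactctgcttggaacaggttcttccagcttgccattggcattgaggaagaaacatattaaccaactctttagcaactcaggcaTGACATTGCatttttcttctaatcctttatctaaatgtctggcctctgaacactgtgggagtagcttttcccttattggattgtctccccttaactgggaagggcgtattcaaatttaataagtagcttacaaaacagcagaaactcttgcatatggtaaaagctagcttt
Nfe2l2, chr2:75704614-75704913, minus strand: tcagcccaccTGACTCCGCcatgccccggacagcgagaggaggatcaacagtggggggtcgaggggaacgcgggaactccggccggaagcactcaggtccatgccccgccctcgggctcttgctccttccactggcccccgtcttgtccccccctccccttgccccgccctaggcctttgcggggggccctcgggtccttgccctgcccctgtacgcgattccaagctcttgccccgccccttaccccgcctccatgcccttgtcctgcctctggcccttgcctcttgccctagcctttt

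In the Srxn1 window, the TGAGTCAGC match starts 45 bases before the start site. The core match lies 28 bases after the start site on the other strand, where it reads TGACCTAGC. The Gsta3 match, TGACATTGC, starts 121 bases before the start site and the Nfe2l2 match, TGACTCCGC, 240 bases before it. A match describes these letters only, and known elements of such genes can lie farther upstream than this window. Nqo1 and Slc7a11 held neither form in their windows.

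RNA of the regulator itself was higher, while NRF2 protein and its activity were not measured. Nfe2l2 had levels of 11.59, 11.74, 11.55, 11.66 and 11.60 in knockout lungs, against 11.24, 11.27, 11.07, 11.26 and 11.28 in control lungs. The groups did not overlap, and the spread within each was small. The log2 change was 0.41 ± 0.06 (SE), a fold of 1.33 (adjusted p = 0.00139), and the 5 same-numbered pairs differed by 0.32 to 0.49. Nfe2l2 was lowest in knockout 3, and knockout 5 was not set apart for it. Keap1, the inhibitor, averaged 8.18 ± 0.10 in knockout lungs and 8.06 ± 0.10 in control lungs (SD, n = 5 each). Its change of 0.12 was not called (adjusted p = 0.483).

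In glutathione synthesis, RNA of the catalytic subunit of the first enzyme was higher. Glutathione itself was not measured. Gclc encodes the catalytic subunit of glutamate-cysteine ligase, the rate-limiting enzyme of the pathway. Its levels were 11.54, 11.72, 11.33, 11.25 and 10.20 in knockout lungs, against 10.28, 10.30, 10.02, 9.85 and 9.83 in control lungs. In 4 knockout lungs the level was far above all controls, and knockout 5 lay below controls 1 and 2. The mean change was 1.16 ± 0.23 (SE), a fold of 2.23 (adjusted p = 0.0181). Without knockout 5 it was 1.41 (adjusted p = 0.000101). The call ended without control 5 or knockout 1, with adjusted p up to 0.0510.

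The partner subunit moved far less. Gclm, the modifier subunit of the same ligase, had levels of 9.76, 9.85, 9.82, 9.90 and 9.64 in knockout lungs, against 9.65, 9.64, 9.63, 9.66 and 9.54 in control lungs. All 5 pairs were higher in the knockout, by 0.10 to 0.24, and knockout 5 lay within the control range. The change of 0.17 ± 0.06 (SE) was not called (adjusted p = 0.163), but was without knockout 5 (0.21, adjusted p = 0.0410). The 95% interval of the Gclm change, 0.05 to 0.29, lies below that of Gclc, 0.65 to 1.67; the difference between the subunits was not tested. Gss, the synthetase of the second step, had a change of 0.00 (95% interval -0.16 to 0.16).

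The cystine transporter gene was high in the same lungs as Gclc. Slc7a11, the cystine-glutamate exchanger that supplies cysteine, had levels of 6.32, 6.24, 6.47, 6.86 and 5.01 in knockout lungs, against 4.97, 4.84, 5.07, 4.93 and 4.82 in control lungs. Knockouts 1 to 4 were well above every control, and knockout 5 was within the control range. The change was 1.25 ± 0.26 (SE, adjusted p = 0.0201), and 1.54 without knockout 5 (adjusted p = 3.5e-05). All control values and that of knockout 5 were below the level that 20% of array values fall under (6.11), where a probe set reports little signal. With values floored there the change was 0.29 and was not called (adjusted p = 0.354), so its size is uncertain. The call also ended without any 1 of controls 2 and 5 and knockouts 1, 2 and 3, with adjusted p up to 0.0569.

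Gsr, glutathione reductase, which returns oxidised glutathione to its reduced form, was higher in all knockout lungs. Its levels were 10.25, 10.35, 10.60, 10.31 and 10.49 in knockout lungs, against 9.96, 10, 10.01, 10.19 and 10.01 in control lungs. Knockout 5 was here the second highest, unlike for Gclc and Slc7a11. The change was 0.37 ± 0.07 (SE), a fold of 1.29 (adjusted p = 0.0149).

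**Figure D2:**
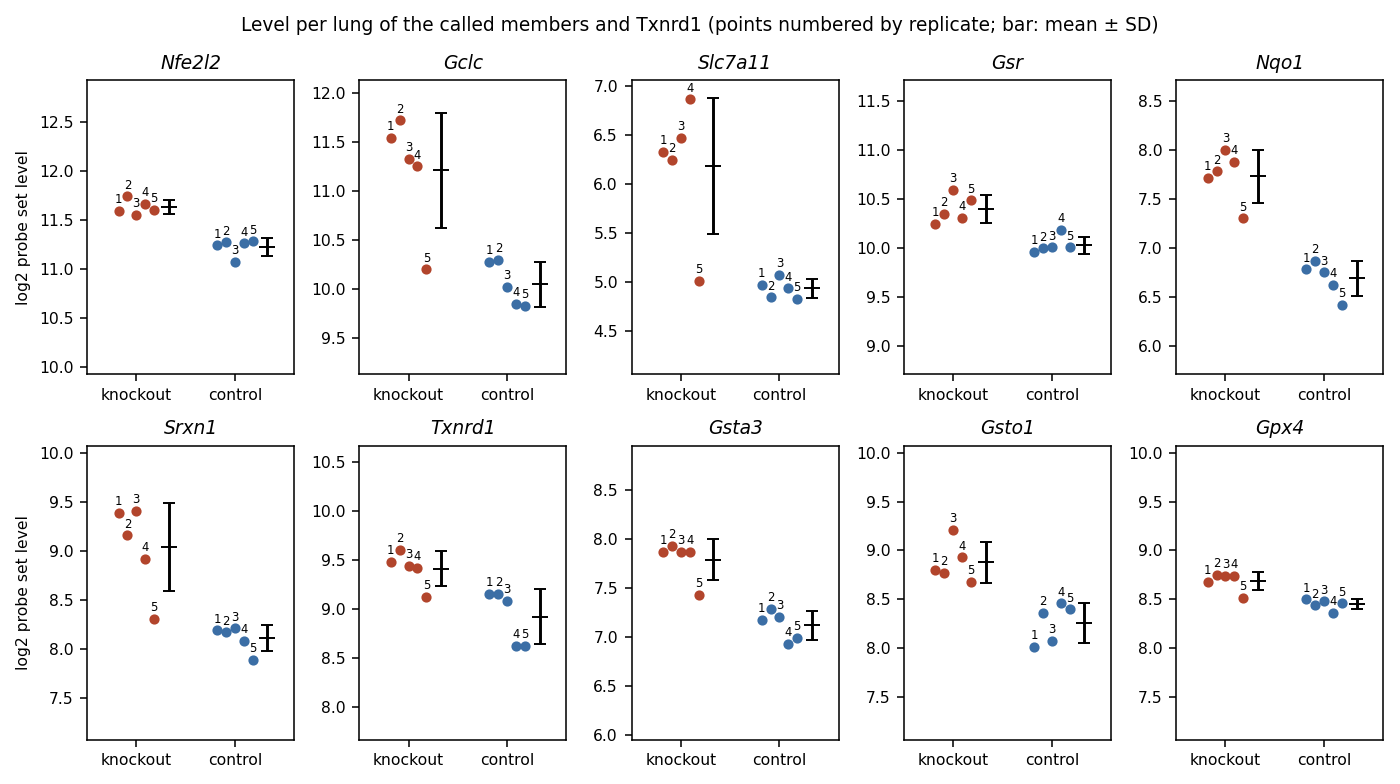
Level of each lung for the 9 members called higher and for Txnrd1. Points are log2 probe set levels numbered by replicate, knockout in red left of control in blue, bars are mean ± SD (n = 5), and every panel spans the same log2 range. Knockout 5 lies lowest of the knockout lungs for Gclc, Slc7a11, Nqo1, Srxn1, Txnrd1, Gsta3, Gsto1 and Gpx4, but not for Nfe2l2 or Gsr.

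Among the quinone, sulfiredoxin and heme enzymes, 2 of 3 were higher, where 1.54% of all genes were. Nqo1, a quinone reductase that uses NADPH or NADH, had levels of 7.71, 7.78, 8.0, 7.88 and 7.30 in knockout lungs, against 6.78, 6.87, 6.75, 6.62 and 6.42 in control lungs. The lowest knockout lung, number 5, was still above the highest control. The change was 1.04 ± 0.12 (SE), a fold of 2.06 (adjusted p = 0.000439), and the same-numbered pairs differed by 0.88 to 1.26. Lung 5 was the lowest in both groups.

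Srxn1, sulfiredoxin, repairs over-oxidised peroxiredoxins; its window with both motif forms is shown above. It had levels of 9.39, 9.16, 9.41, 8.92 and 8.31 in knockout lungs, against 8.19, 8.17, 8.21, 8.08 and 7.89 in control lungs. All knockout lungs lay above all controls, knockout 5 by a narrow margin. The change was 0.93 ± 0.18 (SE), a fold of 1.90 (adjusted p = 0.0121), and 1.11 without knockout 5 (adjusted p = 0.000159). Hmox1, heme oxygenase 1, which breaks heme down and is induced by NRF2 in many cells, averaged 7.52 ± 0.15 in knockout lungs and 7.43 ± 0.21 in control lungs (SD, n = 5 each). Its change of 0.09 was not called (adjusted p = 0.796, 95% interval -0.13 to 0.31).

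In the thioredoxin system, which reduces protein disulfides with electrons from NADPH, limma called 0 of 3 genes, and 1 had an unadjusted p under 0.05. That gene was Txnrd1, the cytosolic thioredoxin reductase. It had levels of 9.48, 9.60, 9.44, 9.42 and 9.12 in knockout lungs, against 9.15, 9.15, 9.08, 8.62 and 8.62 in control lungs. Controls 4 and 5 were lower than controls 1 to 3, and knockout 5 lay just under controls 1 and 2. The change was 0.49 ± 0.13 (SE, adjusted p = 0.0601); with the replicate block it was called higher (adjusted p = 0.00678). Without knockout 5 it was called as well (0.56, adjusted p = 0.0271). Txn1, the thioredoxin itself, had a change of -0.04 (95% interval -0.12 to 0.05) and Txnrd2, the mitochondrial reductase, of -0.05 (-0.15 to 0.04).

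Glutathione transferases, which attach glutathione to reactive compounds, split by member: 2 of 12 were higher and limma called 0 lower, with 1 negative change at an unadjusted p under 0.05. Their median change was -0.02. Gsta3, an alpha class transferase with the core motif in its window, had levels of 7.87, 7.93, 7.87, 7.87 and 7.43 in knockout lungs, against 7.18, 7.29, 7.21, 6.93 and 6.99 in control lungs. The groups did not overlap, with knockouts 1 to 4 within 0.06 of each other and knockout 5 lower. The change was 0.67 ± 0.10 (SE), a fold of 1.59 (adjusted p = 0.00270).

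Gsta3 is also known from airway club cells. Of 10 club and secretory markers, all measured, 4 were lower, where 1.58% of all genes were, and 1 was higher, where 1.54% were. The lower ones were Chad (-1.26), Gabrp (-1.13), Scgb3a2 (-1.06) and Cbr2 (-0.30), and the higher one was Krt15 (1.75). The mean level of the 10 markers, Krt15 included, ran from 8.99 to 9.43 in knockout lungs and from 9.32 to 9.62 in control lungs. Scgb1a1 and Cyp2f2 were not called (adjusted p = 0.469 and 0.717), and 1 marker, Bpifa1, had both means below 6.11. The part of these cells in the Gsta3 value was not tested.

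Gsto1, an omega class transferase that also reduces dehydroascorbate, had levels of 8.80, 8.77, 9.21, 8.93 and 8.68 in knockout lungs, against 8.02, 8.36, 8.08, 8.46 and 8.40 in control lungs. The groups did not overlap. The change was 0.62 ± 0.11 (SE), a fold of 1.53 (adjusted p = 0.00930). Its controls followed another order than those of Gclc and Txnrd1, with controls 1 and 3 lowest.

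The other 10 transferases had changes from -0.15 to 0.21. Gstp1, the pi class enzyme, whose window held TGAGTCAGC, averaged 10.62 ± 0.25 in knockout lungs and 10.41 ± 0.23 in control lungs (SD, n = 5 each), a change of 0.21 (adjusted p = 0.552). The mu class genes Gstm1, Gstm2 and Gstm3 had changes of 0.10, -0.10 and -0.05, and Gstm3 was dim, with means of 5.82 in knockout lungs and 5.87 in control lungs, both below 6.11. Gsta4, Gstt1 and Gstk1 had changes of -0.12, -0.10 and -0.10.

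Of the microsomal transferases, Mgst2, which can also make leukotriene C4, had levels of 6.68, 6.51, 6.58, 6.46 and 6.47 in knockout lungs, against 6.76, 6.55, 6.72, 6.73 and 6.70 in control lungs. It was below its partner in all 5 pairs, with a change of -0.15 ± 0.06 (SE) that was not called (adjusted p = 0.247). Mgst1 had a change of 0.09 and Mgst3 of 0.02. With the replicate block, Gsta3 and Gsto1 were again the called genes among these 12 members.

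Glutathione peroxidases use glutathione to reduce peroxides, and 1 of 5 measured was higher. Gpx4, which reduces lipid peroxides in membranes and protects cells from ferroptosis, had levels of 8.68, 8.75, 8.74, 8.74 and 8.52 in knockout lungs, against 8.5, 8.44, 8.48, 8.36 and 8.46 in control lungs. The groups did not overlap, but knockout 5 lay just above the highest control. The change was 0.24 ± 0.05 (SE), a fold of 1.18 (adjusted p = 0.0333). The call was lost when any lung other than knockout 5 was left out, with adjusted p up to 0.0905, so it stands at the edge of the threshold.

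Gpx8, an endoplasmic reticulum member, had levels of 10.78, 10.80, 10.71, 10.67 and 10.88 in knockout lungs, against 10.95, 10.89, 10.94, 10.86 and 10.88 in control lungs. Knockouts 1 to 4 lay under every control and knockout 5 did not. The change of -0.14 ± 0.05 (SE) was not called (adjusted p = 0.202). Gpx1, the cytosolic enzyme, Gpx3, the secreted one, and Gpx7 had changes of 0.03, -0.09 and 0.02.

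Peroxiredoxins reduce peroxides through a reactive cysteine, and limma called 0 of the 3 measured, with 1 at an unadjusted p under 0.05. Prdx4, the endoplasmic reticulum member, had levels of 7.16, 7.29, 7.26, 7.14 and 7.22 in knockout lungs, against 7.02, 7.13, 7.12, 7.01 and 6.95 in control lungs. The groups narrowly did not overlap, and the change of 0.17 ± 0.05 (SE) was not called (adjusted p = 0.124). Prdx2 had a change of 0.02 (95% interval -0.12 to 0.15) and Prdx3, the mitochondrial member, of -0.02 (-0.14 to 0.10).

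Catalase and the superoxide dismutases, which remove hydrogen peroxide and superoxide, had changes of -0.06 to 0.05. Limma called 0 of 4, and also 0 before adjustment at p under 0.05. Sod1, the cytosolic dismutase, averaged 12.25 ± 0.03 in knockout lungs and 12.21 ± 0.04 in control lungs (SD, n = 5 each), a change of 0.04 with a 95% interval of -0.05 to 0.13. Sod2, the mitochondrial enzyme, had a change of -0.06 (-0.19 to 0.06) and Sod3, the extracellular one, of 0.01 (-0.18 to 0.19). Cat had a change of 0.05 (-0.08 to 0.19), with knockouts 1 to 4 from 11.93 to 11.99 and knockout 5 at 11.67, below every control.

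NADPH for these reactions comes in part from the pentose phosphate pathway. Pgd, its second NADPH-making enzyme, had levels of 11.24, 11.33, 11.19, 11.29 and 10.80 in knockout lungs, against 10.92, 10.99, 10.92, 10.74 and 10.88 in control lungs. Knockouts 1 to 4 were above every control, and knockout 5 was below 4 of 5 controls. The change of 0.28 ± 0.09 (SE) was not called (adjusted p = 0.167), and without knockout 5 it was (0.37, adjusted p = 0.00416).

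**Figure D3:**
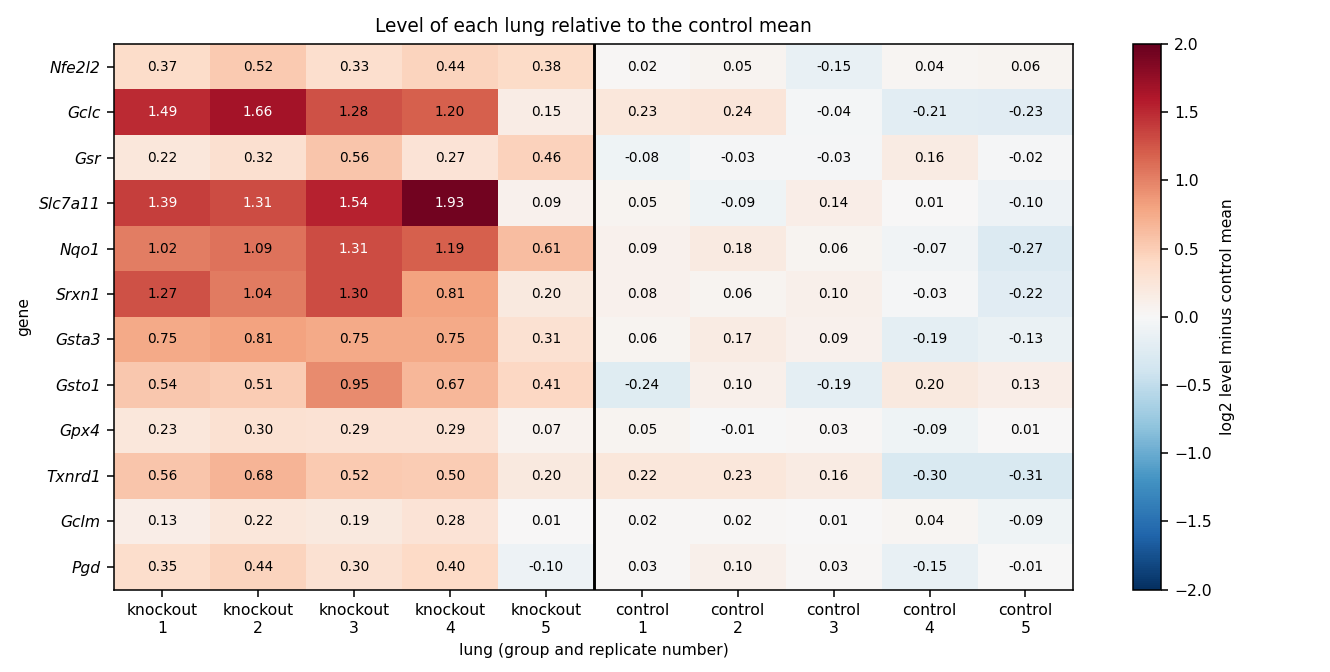
Level of each lung minus the control mean, on the log2 scale, for the 9 called members and Txnrd1, Gclm and Pgd. Columns are the 5 knockout lungs and then the 5 control lungs; red is above and blue below the control mean. Gclc stands at 1.20 to 1.66 above the control mean in knockouts 1 to 4 and at 0.15 in knockout 5, and Slc7a11 at 1.31 to 1.93 and 0.09, while Nfe2l2 and Gsr in knockout 5 stand at 0.38 and 0.46.

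Compared by role, the members called higher were 3 of 5 in glutathione synthesis, uptake and recycling (median change 0.37), 2 of 3 among quinone, sulfiredoxin and heme enzymes (0.93) and 1 of 2 among NRF2 and KEAP1. They were 2 of 12 transferases (-0.02), 1 of 5 glutathione peroxidases (0.02), 0 of 3 peroxiredoxins (0.02) and 0 of 4 catalase and superoxide enzymes (0.02) by limma. In the thioredoxin system they were 0 of 3 (-0.04), and in NADPH supply 0 of 1 (0.28). Of all genes, 1.54% were called higher. The numbers per role are small, and no test was made between roles. Within the lungs numbered 1 to 3 and within those numbered 4 and 5, the mean differences of Gclc were 1.33 and 0.89, those of Srxn1 1.13 and 0.63, and those of Nqo1 1.03 and 1.07. These genes were called over the same lungs, so the signs are no separate support.

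Beyond the members, 109 of 125 other genes of these pathways were measured, and 1 was higher and 8 were lower. Of all genes, 1.54% were called higher and 1.58% lower. With the replicate block 3 of the 109 were higher and 8 lower, where 2.28% and 2.44% of all genes were. The median change of the 109 genes was -0.01. Among 22 other NRF2 target genes, Aox1, aldehyde oxidase 1, was higher by 0.41 ± 0.09 (SE, adjusted p = 0.0258), and 0 were lower by limma, with 1 negative change at an unadjusted p under 0.05. Me1, the malic enzyme that makes cytosolic NADPH, differed by 0.37 (adjusted p = 0.161) and was called in the blocked fit (0.0396) and without knockout 5 (0.46, adjusted p = 0.0376). Osgin1, an oxidative stress response gene, differed by 0.46 (adjusted p = 0.0764) and was likewise called with the block (0.00460) and without knockout 5 (0.56, adjusted p = 0.0190). Both were chosen for their blocked calls after their values were seen. By limma 0 of 12 NRF2 partners and regulators were called; 5 had a positive change with an unadjusted p under 0.05, where 6.84% of all genes did. They were Bach1 (0.24), which encodes a repressor at NRF2 sites, the small Maf genes Mafg (0.17), Mafk (0.13) and Maff (0.12), whose products pair with NRF2, and Sqstm1 (0.12), whose product binds KEAP1; they are named here after their values were seen. Bach1 was called without knockout 5 (0.31, adjusted p = 0.0189).

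The falls lay in other lists. Anpep and Dpep2, membrane peptidases, the first known to cleave the dipeptide left from glutathione breakdown, were lower in the knockout. Anpep averaged 7.96 ± 0.17 in knockout lungs and 8.94 ± 0.23 in control lungs (SD, n = 5 each), a change of -0.98 ± 0.11 (SE, adjusted p = 0.000326). Dpep2 had a change of -0.42 ± 0.10 (adjusted p = 0.0407), and Gstt3, a theta class transferase, of -0.45 ± 0.07 (adjusted p = 0.00409). Txnrd3, a thioredoxin-glutathione reductase known from testis, was lower by -0.36 ± 0.08 (adjusted p = 0.0304), a direction opposite in sign to the Txnrd1 difference. Aldh1l1, a folate enzyme that makes NADPH, was lower by -0.51 ± 0.11 (adjusted p = 0.0227).

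Of 13 oxidant producing enzymes, 3 were lower and 0 higher by limma, where 1.58% of all genes were called lower and 1.54% higher. At an unadjusted p under 0.05, 8 had a negative and 0 a positive change, where 6.71% of all genes had a negative one. Cybb, the catalytic subunit of the phagocyte NADPH oxidase, averaged 9.03 ± 0.09 in knockout lungs and 9.53 ± 0.13 in control lungs (SD, n = 5 each), a change of -0.50 ± 0.07 (SE, adjusted p = 0.00130). Ncf1, a cytosolic subunit of the same oxidase, had a change of -0.31 ± 0.07 (adjusted p = 0.0393) and Noxa1, an activator of the related NOX1 oxidase, of -0.35 ± 0.08 (adjusted p = 0.0351). Beside them, limma called 0 of 10 macrophage markers, also 0 before adjustment at p under 0.05. Only 1 of the 10 had a positive change, and the changes ran from -0.20 to 0.09 with a median of -0.03. The mean macrophage marker level ran from 7.80 to 7.98 in knockout lungs and from 7.90 to 8.04 in control lungs. The part of phagocyte number in the Cybb and Ncf1 values was not tested. Of the 9 calls in these lists, those of Anpep, Gstt3 and Cybb held with each of the 10 lungs left out in turn. The others were lost in 5 (Aldh1l1), 6 (Txnrd3), 7 (Aox1, Dpep2 and Ncf1) and 8 (Noxa1) of those 10 fits, with adjusted p up to 0.105. Knockout 5 was among the lungs whose omission ended the calls of Dpep2 (adjusted p = 0.0773) and Txnrd3 (adjusted p = 0.0547).

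**Figure D4:**
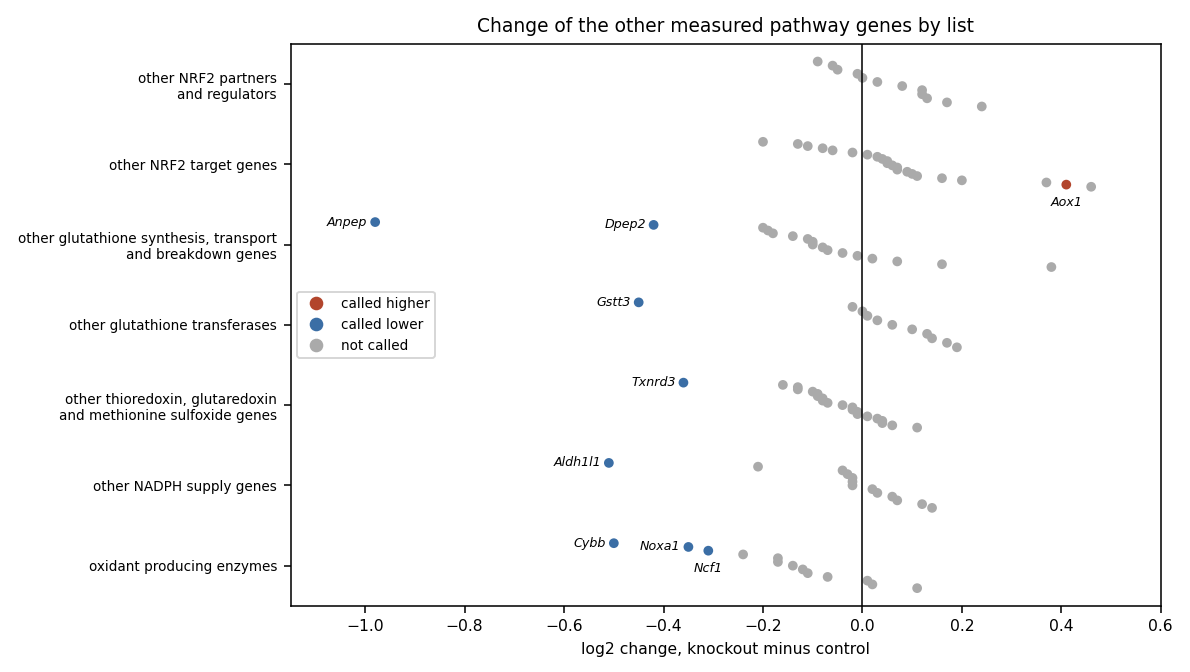
Log2 change, knockout minus control, of the 109 other measured genes of these pathways, 1 point per gene in 7 lists (n = 5 lungs per group). Red marks Aox1, called higher, and blue the 8 genes called lower; 3 of these 8 are oxidant producing enzymes and the largest change is that of Anpep at -0.98.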

How the data were processed

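Levels were the log2 values the authors deposited, 1 column per lung. The submitters' processing notes list RMA, limma and oligo; their versions, the genome build and any row filter were not given in the sources used here. RMA borrows strength across arrays and compresses differences of dim probe sets. The table held 24888 probe sets without missing values, named through GEO's platform annotation: 18922 carried 1 symbol, 1343 several and 4623 none, and 18790 matched the GRCm38.p6 gene table. The brightest probe set by mean over the lungs stood for each gene. Knockout was compared with control by limma 3.58.1 in R 4.3.3 (lmFit, eBayes, two-sided) across all genes, with Benjamini-Hochberg adjustment; the code was tested on simulated data. Same-numbered lungs deviated together from their group means (r = 0.319, 0.154, 0.183, 0.485 and 0.36, while lungs of different numbers had a median r of -0.0829 and reached 0.33), and 7 of 10 lungs matched their own number best. The numbers were taken to pair the lungs because every same-number value exceeded 0.1; this comes from the data, not the labels. Nothing in the labels states that lungs came from separate litters, though they are called biological replicates.

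The members, the other lists, the tests and the rule for naming genes were chosen with earlier results of these data known. The rule named all members, with every lung's value where the unadjusted p was under 0.05, and up to 4 called genes per other list; genes named outside it are introduced as such. Alternatives were the replicate block, each lung left out, every probe set, a floor at the 20th percentile, genes above the median level, median centring, quantile normalization, a variance trend with robust fitting and array weights.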

Additional observations from a re-analysis of the deposited data

Results flagged for a closer look

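In a group of 5 lungs, 1 lung was set apart when its gap to the nearest other exceeded 0.71 of the group's range. Of 76 groups of 5 (38 members in both genotypes) 11 met this, or 14.5%, where chance gives about 1 in 20, and 5 of the 11 were knockout 5 at the low end. Those 5 were Gsta3 at 7.43, Gstm1 at 7.79, Gpx4 at 8.52, Cat at 11.67 and Pgd at 10.80. The genes share their lungs, so the 5 are not independent. Other knockout values stood high, Gsta4 in knockout 3 at 10.11 and Prdx3 in knockout 2 at 10.39. Among controls, Nfe2l2 was low in control 3 at 11.07, Gclm low in control 5 at 9.54, Gstm1 low in control 2 at 7.66 and Gsr high in control 4 at 10.19.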

How the results depend on the processing

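Under each of 18 other settings, 0 members were called lower by limma. The count called higher ran from 6 to 12 with 1 lung left out, and from 6 to 11 otherwise; the 9 calls were all kept with the replicate block (10 called), every probe set, median centring, quantile normalization, the variance trend and array weights (11 called). Flooring kept 6 and lost Gclc, Srxn1 and Slc7a11. When genes at the floor in every lung were left out, an alternative added after seeing the data, 8 of 37 were called and Slc7a11 alone was lost; no value of Gclc or Srxn1 lies under the floor. Genes above the median level held 29 members, without Slc7a11, Nqo1 and Gsta3. The median change of the members ran from 0.03 to 0.07.

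The count over all genes, 559, was 846 with the replicate block and from 393 to 699 with 1 lung left out. Other pathway genes called higher were 3 with the block, 3 with array weights, 0 with flooring and 0 to 4 with 1 lung left out; those called lower were 3 with flooring, 5 above the median level and 3 to 8 with 1 lung left out. Hdac3 changed by -0.35 to -0.28 with 1 lung left out and was not called without control 2 or control 5 (adjusted p = 0.0526 and 0.0545).

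Lungs 1 to 3 and 4 to 5 were separated after seeing the data. As a block they gave 910 genes, 10 members and 3 other pathway genes called higher. Lungs 1 to 3 alone gave 9 members, with Gsr and Gpx4 lost and Txnrd1 and Pgd gained, 3 other pathway genes called higher, and Hdac3 at -0.26 (adjusted p = 0.0629). Lungs 4 and 5 alone, with 2 per group, gave 2 genes, 0 members, 0 other pathway genes called higher and 0 lower, and Hdac3 at -0.40 (adjusted p = 0.421). The cause of these shifts was not tested. No other call of a member changed with the block.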
